A study of Mus musculus with 10 samples.

Results

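At day 9 of reprogramming, 4630 stretches of open chromatin were listed in both day 9 libraries and in no library of any other stage. They were chosen from 208851 regions, made by merging the overlapping peaks of 10 deposited ATAC-seq peak lists. A list held a region if a peak overlapped it by at least 1 bp. The regions kept had a peak in both DAY9 lists and in none of the 8 lists of the MEF, DAY3, DAY6 or ESC stage. They were 2.22% of all merged regions and 7.19% of the 64383 regions that both DAY9 lists hold. Presence and absence of peaks chose them, so their peak heights and their number are described and not tested.

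ATAC-seq maps open chromatin with a transposase that cuts accessible DNA and inserts sequencing adapters. Each of the 5 stages had 2 libraries, and all 10 carry 1 batch name. MEF cells, embryonic fibroblasts of C57BL/6 x 129 mice, carried the OKSM cassette (Oct4, Klf4, Sox2, Myc) in Col1a1 and the M2rtTA activator in ROSA26, and were kept in MEF medium without doxycycline. DAY3, DAY6 and DAY9 cells had the same strain and genotype and were grown in ESC medium with doxycycline at 1 µg/ml and ascorbic acid at 50 µg/ml for 3, 6 and 9 days. DAY6 and DAY9 cells were sorted by SSEA1 and the cells of the other stages were not, so those 2 days cannot be told apart from sorting. ESC cells were the V6.5 line, of the same strain background, grown on irradiated feeder cells. They carried no cassette and stand for established pluripotency by 1 line. The age and number of the animals are not given in the sources used here.

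During reprogramming, fibroblast genes are silenced early, epithelial junction genes are switched on next, and the pluripotency network is established late. Many regulatory regions open for a short time along this path, away from gene starts, where enhancers lie. SSEA1 is a carbohydrate on the surface of embryonic stem cells that marks cells on the way to pluripotency. Known partners at such regions are the cassette factors, AP-1 of fibroblasts, and epithelial factors such as the grainyhead-like and TFAP2 proteins.

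For the few regions that overlap a window at an annotated start, sequence was read from the RefSeq promoter table (GRCm38.p6, the assembly called mm10). It gives 250 bases before and 50 after each start, and an overlap of any length counted. A day 9 only region overlapped 36 windows of 36 genes, among 21263 windows of protein-coding genes. Printed are the 250 bases before the start at 4 of these genes. The 4 were chosen after their values were seen, because they hold the letters of AP-1, KLF or octamer motifs, and binding was not measured. Each sequence runs 5′ to 3′ on the gene's strand, and capitals mark those letters.
Hamp, chr7:30944030-30944279, minus strand: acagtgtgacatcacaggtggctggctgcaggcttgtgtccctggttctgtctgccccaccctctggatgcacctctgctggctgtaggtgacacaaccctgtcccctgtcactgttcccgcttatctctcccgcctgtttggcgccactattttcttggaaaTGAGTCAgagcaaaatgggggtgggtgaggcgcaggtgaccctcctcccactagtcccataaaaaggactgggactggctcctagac
Gm10639, chr9:78289678-78289927, plus strand: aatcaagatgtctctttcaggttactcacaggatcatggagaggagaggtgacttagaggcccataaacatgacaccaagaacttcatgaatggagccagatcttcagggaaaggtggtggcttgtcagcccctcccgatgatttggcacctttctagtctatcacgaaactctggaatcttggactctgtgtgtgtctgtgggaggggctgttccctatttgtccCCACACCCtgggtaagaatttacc
Cnr2, chr4:135894939-135895188, plus strand: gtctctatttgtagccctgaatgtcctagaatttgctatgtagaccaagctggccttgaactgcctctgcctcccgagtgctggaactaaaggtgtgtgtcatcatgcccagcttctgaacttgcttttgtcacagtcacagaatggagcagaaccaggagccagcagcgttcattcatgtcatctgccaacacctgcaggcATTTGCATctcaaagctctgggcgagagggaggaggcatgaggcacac
Harbi1, chr2:91711830-91712079, plus strand: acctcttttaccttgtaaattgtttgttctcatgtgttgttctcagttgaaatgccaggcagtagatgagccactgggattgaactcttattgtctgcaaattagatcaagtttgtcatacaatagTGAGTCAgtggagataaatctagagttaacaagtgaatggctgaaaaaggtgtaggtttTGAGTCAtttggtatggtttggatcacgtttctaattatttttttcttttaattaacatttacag

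Hamp, the gene of the iron hormone hepcidin, had a region at chr7:30943395-30944407 with a peak fold of 5.52 in DAY9 replicate 1 and 7.64 in replicate 2. Fold is the authors' ratio of the peak summit to its local background. All 250 bases before the Hamp start lay under the region, and the AP-1 letters began 87 bases before it. At Gm10639 the fold was 4.80 and 5.85, and CCACACCC, the reverse complement of the KLF letters GGGTGTGG, began 24 bases before the start. At Cnr2, which encodes a cannabinoid receptor, the fold was 4.92 and 3.82, and the octamer on the opposite strand began 48 bases before the start. At Harbi1, which encodes a transposase-derived nuclease, the fold was 3.49 and 3.83. There 152 of the 250 bases lay under the region, with the AP-1 letters 124 bases before the start inside it and those 65 bases before the start outside it.

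The start windows under day 9 only regions held fewer CpG dinucleotides than those under other DAY9 regions, with a median of 6.0 against 22.0 per window of 300 bases, and 13 over all windows. Median GC content was 56.2% against 62.0% and 56.3%. The 8477 windows under neither kind of region had medians of 3.0 CpG and 47.3% GC. Short motifs, 19 in all, were searched on both strands of each whole window. The AP-1 letters TGANTCA stood in 7 of the 36 windows (19.4%), in 4.32% of the 12750 windows under other DAY9 regions, and in 6.99% of all windows. KLF letters of the form GGGTGTGG stood in 5 (13.9%), against 3.85% and 3.63%, and the form GGGCGTGG, which holds a CpG, in 0, against 10.6% and 6.97%. The TEAD letters GGAATG stood in 8 (22.2%), against 11.4% and 13.6%. For the grainyhead-like letters AACNGGTT the count was 3 (8.33%), against 1.75% and 1.95%. The CCAAT letters of NFY stood in 7 (19.4%), against 38.5% and 38.2%, and the TFAP2 letters GCCNNNGGC in 6 (16.7%), against 26.6% and 19.9%. The octamer ATGCAAAT stood in 1 window (2.78%, against 1.48% and 1.66%). SOX letters CATTGTT stood in 3 (8.33%), against 1.63% and 3.25%, and GATA letters AGATAA in 5 (13.9%), against 5.18% and 9.65%. CEBP letters TTGCNNAA stood in 6 (16.7%), against 7.5% and 10.2%. The E-box of MYC, CACGTG, stood in 1 (2.78%), against 10.2% and 7.8%. ETS letters ACCGGAAG stood in 0, against 4.65% and 3.01%, and CTCF letters CCANNAGGG in 0, against 6.42% and 6.04%. For the ZIC letters CAGCAGG the count was 6 (16.7%), against 10.1% and 10.5%. RUNX letters TGTGGTTT stood in 1 (2.78%), against 0.863% and 1.61%, and FOX letters TGTTTAC in 1 (2.78%), against 2.23% and 3.0%. ESRRB letters CAAGGTCA stood in 0, against 0.847% and 1.34%, and HNF1 letters GTTAATNAT in 0, against 0.243% and 0.72%. With 36 windows 1 window is 2.78%, and a match is only a run of letters. Sequence of the other day 9 only regions was not analysed here.

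The day 9 only regions were short and low. Median width was 460 bp (quartiles 382 and 565 bp, range 201 to 1548 bp), against 805 bp for the 59753 regions with a peak in both DAY9 lists and in at least 1 other list, called other DAY9 regions here. Merged regions span the peaks of every list that holds them, so width can grow with the number of lists. Regions in all 8 other lists had a median of 1156 bp, and the peaks of each DAY9 list alone a median of 500 bp. Together the day 9 only regions covered 2.27 Mb. In 4614 of them each DAY9 list had a single peak, and 16 had 2 peaks in a list. The fold, averaged over both lists, had a median of 3.41 (quartiles 2.99 and 4.19), against 5.40 for the other DAY9 regions, 4.91 for the 2414 regions of day 6 and day 9 only and 6.29 for the 3520 regions of all 3 intermediate days only. A fold of 5 or more was reached by 620 regions (13.4%), against 54.7% of the other DAY9 regions, and a fold of 10 or more by 25. The deposited score is 10 times the −log10 p-value of the peak. Its lower value of the 2 lists had a median of 76, against 209, and 903 regions (19.5%) reached 133, the median over all 10 lists, in both, against 63.2%.

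The pair of DAY9 lists had nearly the same level of fold, with moderate agreement from region to region. Over the 4630 regions the log2 fold correlated between them with a Pearson r of 0.753 and the fold with a Spearman rho of 0.640, across regions of libraries made from 1 stage. The log2 ratio of the folds had a median of 0.01 and an SD of 0.31, and 6.50% of the regions differed by more than 1.5 times. Summit pileups, the fragments stacked at a summit, can be recovered from the deposited fold and −log10 p-value. At DAY9 regions with pileups of 100 to 200, the squared difference between the libraries was 1.44 times that of counting alone, against 1.33 times for DAY3, 3.61 for DAY6, 9.27 for ESC and 10.8 for MEF. The DAY9 libraries, like the DAY3 libraries, differed by little more than sampling noise. They may come from 1 sample and are counted as 1 here. The 2 libraries of DAY6, of ESC and of MEF also differed more in depth, given below, whose part in these ratios was not tested. Both DAY9 values are given for each region, with no SD, and presence in both lists is not taken as a check by a second culture.

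**Figure D1:**
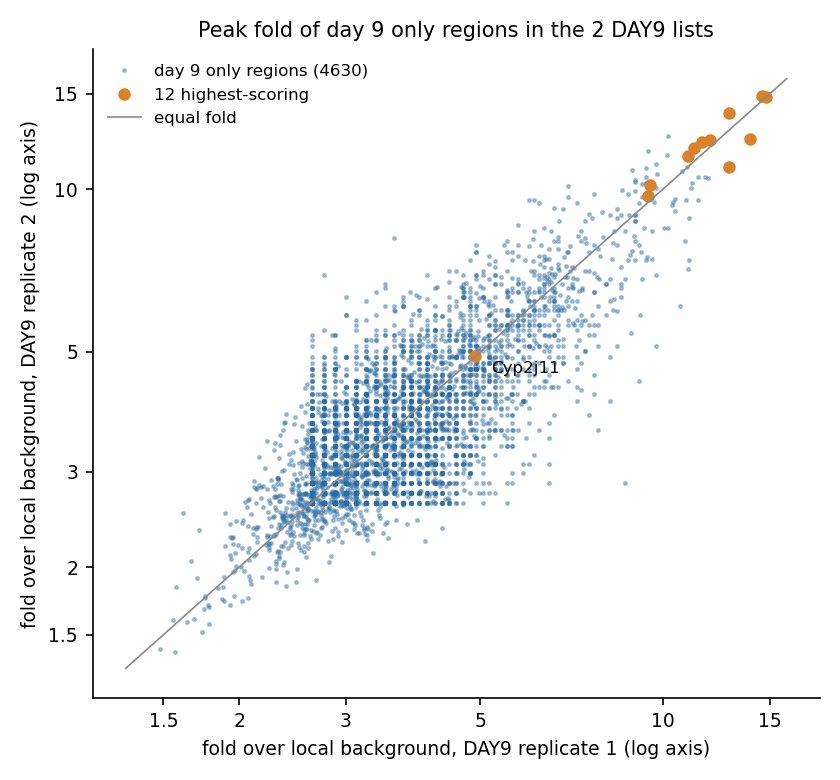
Peak fold over local background of the 4630 day 9 only regions in DAY9 replicate 1 (horizontal, log axis) and replicate 2 (vertical, log axis), with 1 point per region and the 12 highest-scoring regions in orange. Most points lie between a fold of 2 and 5, and 11 of the 12 highest lie near or above 10, while the region in Cyp2j11 stands at a fold of 4.90.

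The low peaks bear on absence elsewhere, since the libraries differed in depth. The background pileup, the commonest expected pileup of a list and a measure of relative depth, was 7.33 and 7.37 in the DAY9 libraries. The MEF libraries had 3.42 and 8.32, the DAY3 libraries 5.30 and 5.27, the DAY6 libraries 3.45 and 2.33, and the ESC libraries 3.48 and 5.46. The median summit pileup of the day 9 only regions was 30 and 31. Scaled to the background of DAY6 replicate 2, the shallowest library, 882 regions (19.1%) would still have passed a −log10 p of 5, the lowest listed, in both lists. The share was 32.3% at the background of DAY6 replicate 1, 29.8% for MEF replicate 1, 32.4% for ESC replicate 1, 59.7% for ESC replicate 2, and 56.3% and 53.7% for the DAY3 libraries. MEF replicate 2 had a higher background than the DAY9 libraries, and every day 9 only region passed there. The 882 had a median fold of 5.51, with 3.18% at gene starts and 51.9% outside genes, against 3.28% and 48.0% of the others. Peaks had also been removed from every list after calling, since only part of the peak numbers were left. The share left was highest in the DAY9 lists, 75.9% and 75.8%, against 58.2% in DAY6 replicate 2 to 70.8% in ESC replicate 2. Not being listed is thus no proof of closed chromatin.

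**Figure D2:**
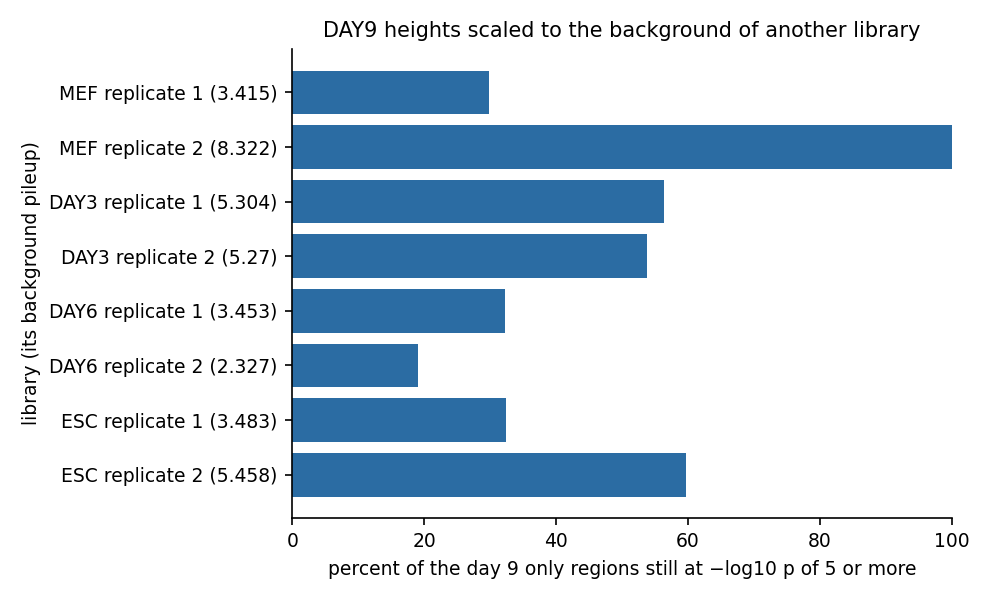
Percent of the 4630 day 9 only regions whose DAY9 summit pileups, scaled to the background pileup of each other library (in brackets), still reach a −log10 p of 5 in both DAY9 lists. The bars run from 19.1% at the background of DAY6 replicate 2 to 100% at that of MEF replicate 2.

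Day 9 only regions were the low end of a gradation. Among regions of both DAY9 lists, 4630 were in 0 other lists, 5279 in 1, 7762 in 2, and 15359 in all 8. Median fold was 3.41, 3.59, 3.83 and 10.2 at these steps. In between it did not rise at every step, with 4.14 at 3 other lists, 5.33 at 4, 4.92 at 5, 5.928 at 6 and 5.465 at 7. Of the 5279 regions that missed the rule by 1 list, 1601 (30.3%) were in DAY6 replicate 1 and 1356 (25.7%) in DAY6 replicate 2. A further 1014 and 774 were in the ESC libraries, 190 and 69 in the MEF libraries, and 142 and 133 in the DAY3 libraries. Another 8024 regions were in 1 DAY9 list and in no other list, with a median score of 60. By comparison, 1044 regions were of day 3 only (2.95% of the DAY3 regions) and 423 of day 6 only (0.934% of the DAY6 regions), while 37.7% of the MEF regions and 28.1% of the ESC regions belonged to their stage alone.

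**Figure D3:**
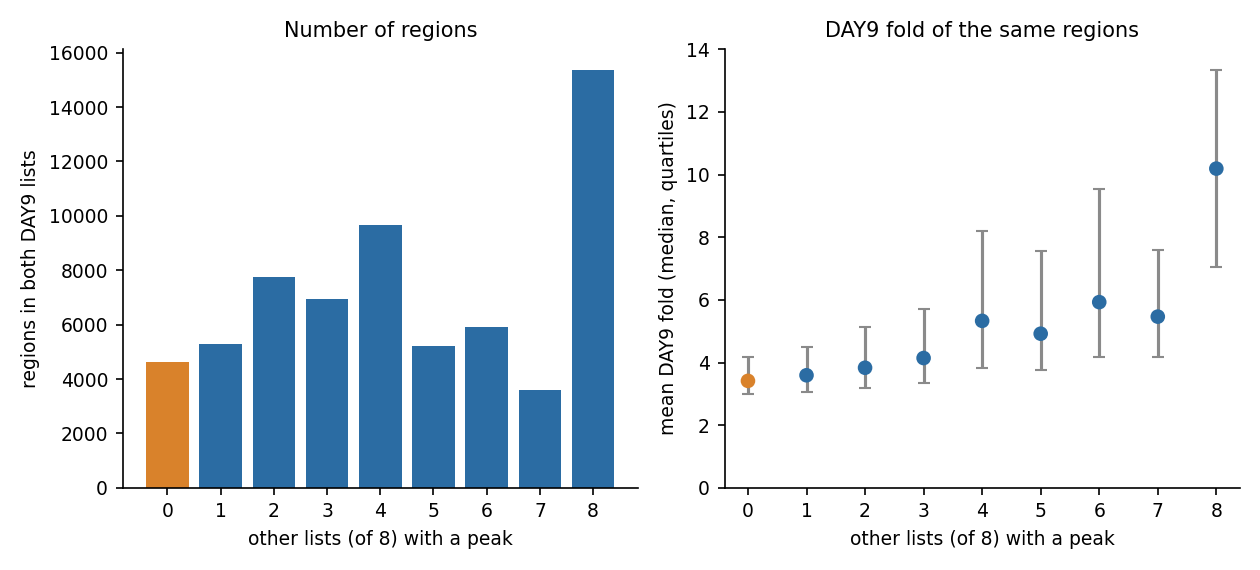
Left, number of regions with a peak in both DAY9 lists by how many of the 8 other lists hold them; right, their mean DAY9 fold (point, median; bars, quartiles). The day 9 only regions, in orange at 0, number 4630 and have a median fold of 3.41, and regions of all 8 other lists have a median of 10.2.

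A pair of regions with higher scores than any day 9 only region missed the rule by a single low peak in DAY6 replicate 2. The first lay 180.5 kb from Nectin3, which encodes an adhesion protein, at chr16:46678997-46679770. Its fold was 16 and 15.8 at DAY9 and 5.11 in DAY6 replicate 2. The other lay 18 kb from Dynlt1b, a dynein light chain gene, at chr17:6410618-6411536, with a fold of 11.3 and 11.1 at DAY9 and 3.92 in DAY6 replicate 2. Just inside the rule, 533 regions shared the lowest lower score of 50, and 36 of them had 50 in both lists. Examples from this tie lay in Col4a6 (a basement membrane collagen; chrX:141265760-141266254, fold 2.64 and 3.46) and 28.6 kb from Tspyl2 (a nucleosome assembly family gene; chrX:152308002-152308287, fold 2.64 and 2.87).

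Of the 12 highest-scoring day 9 only regions, 7 lay inside a protein-coding gene and 5 lay 11.3 to 324.0 kb outside one. The first by score, at chr8:8292414-8293230, lay 324.0 kb from Efnb2, which encodes ephrin-B2, a membrane ligand of Eph receptors. Its fold was 14.6 and 14.9, with summit pileups of 125 and 139. Next came a region inside the 965.5 kb gene Cadm2, a cell adhesion molecule, at chr16:66824461-66825359, with a fold of 14.8 in each list and the nearest peak of another list 48.8 kb away. Inside Gria1, a subunit of AMPA-type glutamate receptors, the region chr11:57044479-57045238 had a fold of 13.9 and 12.4. A region at chrX:160312335-160313001, 77.3 kb from the adhesion receptor gene Adgrg2, had 12.9 and 13.9. None of these 4 genes has its start at the region.

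Among the other 8 of the 12, a region 13.8 kb from Foxi2, a forkhead factor, at chr7:135395885-135396574 had a fold of 12 and 12.4, and one 15.3 kb from Nkx2-6, a homeobox factor, at chr14:69155717-69156514 had 11.3 and 11.9. Near Zfp872, a zinc finger gene 11.3 kb away, chr9:22213391-22214315 had 11.6 and 12.2, and inside D430041D05Rik chr2:104259832-104260562 had 12.9 and 11.0. The region in Ptk2b, a non-receptor tyrosine kinase, at chr14:66189070-66189919 had 11.0 and 11.5, that in Osbpl1a, an oxysterol-binding protein, at chr18:12793628-12794368 had 9.46 and 9.70, and that in Pde6a, a rod phosphodiesterase subunit, at chr18:61248424-61249303 had 9.53 and 10.2. The region inside the cytochrome P450 gene Cyp2j11 (chr4:96329234-96329711) stood apart, with the highest pileups of the 12, 210 and 215, but a fold of 4.90 and 4.92 over a high local background. Those in Osbpl1a, Cyp2j11 and Ptk2b had a peak of another list within 500 bp, at 0.184, 0.397 and 0.453 kb, so a region listed elsewhere lay next to each of them.

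Most day 9 only regions lay close to peaks of other stages. The nearest peak of any other list was at a median of 2.97 kb, within 500 bp for 570 regions (12.3%) and within 10 kb for 84.7%. More than 50 kb separated 23 regions from any such peak, and more than 100 kb separated 4, which are named here after their values were seen. Of the 4, one at chr1:48090020-48090719 lay 1164 kb from Slc39a10, a zinc transporter gene, with a fold of 5.16 and 7.53. A pair at chr8:98086292-98086738 and chr8:98103365-98103731 lay 937.7 and 920.7 kb from the cadherin gene Cdh8. The last, chrX:127939685-127940153, lay 203.1 kb from Cldn34c4, with 4.92 and 4.90.

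Regions with peaks in both ESC libraries lay within 10 kb of 2171 of the 4630 (46.9%, exact 95% Clopper-Pearson interval 45.4 to 48.3%). With peaks at or above the median score alone the share was 29.7%, and with lists of equal length 30.8%. Both settings also shorten the ESC lists, so the ESC regions to be near to change as well. With only the DAY9 peaks scaled to the shallowest background the share was 47.0%. Regions of DAY6 lay within 10 kb for 46.9% of the 4630, of MEF for 39.2% and of DAY3 for 35.3%. There are 58800 ESC, 45281 DAY6, 46089 MEF and 35396 DAY3 regions to be near to. The share near ESC regions was 43.3% for the regions of day 6 and day 9 only, 43.3% for those of all 3 intermediate days and 38.9% for those of day 3 only. This and the other intervals count regions as if they were independent and cover counting error only.

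Day 9 only regions were seldom at gene starts. With a start within 1 kb counted as at the start, 151 of 4630 were (3.26%, interval 2.77 to 3.81%), against 23.5% of the other DAY9 regions and 9.05% of all regions. The share was 3.15% for day 6 and day 9 only, 2.27% for all 3 intermediate days, 2.01% for day 3 only, 3.14% for ESC only and 2.02% for MEF only. The median distance to the nearest start was 30.4 kb, against 16.9 kb for other DAY9 regions, 32.3 kb for all regions and 38.4 kb for day 6 and day 9 only. Between 1 and 10 kb of a start lay 21.2% of the day 9 only regions, against 17.1% of all regions, and over 100 kb from one 21.9%, against 25.1%. Outside protein-coding genes lay 2255 (48.7%, interval 47.3 to 50.2%), the same share as for all regions (48.7%), against 39.3% of other DAY9 regions. Long noncoding RNA genes overlapped 10.7%, against 13% of other DAY9 regions and 11.4% of all regions. One region overlapped a miRNA gene, Mir7089, inside the cell cycle phosphatase gene Cdc25a, at chr9:109889166-109889915 with a fold of 3.24 and 3.29.

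**Figure D4:**
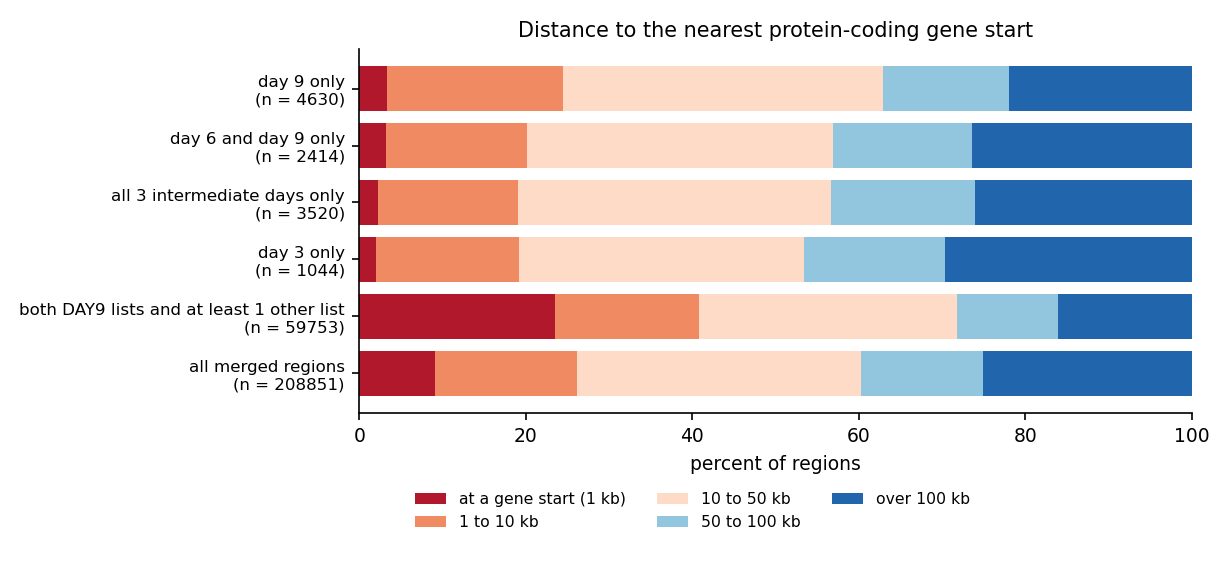
Percent of regions by distance to the nearest protein-coding gene start, for the day 9 only regions and 5 other sets of merged regions. The share at a start is 3.26% for day 9 only, near the other transient sets, and 23.5% for regions of both DAY9 lists and at least 1 other list.

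The 151 regions at starts belonged to 149 genes, and the start itself lay inside 47 of them. Of the 149 genes, 98 also had another merged region at a start and 51 had none. The highest by score lay 0.49 kb from the start of Crip3, a LIM domain protein gene, inside the gene at chr17:46428685-46429623, with a fold of 8.99 and 9.91. A region at chr12:78841610-78842205 lay 0.896 kb from a start of Mpp5, a polarity scaffold of tight junctions, and 0.777 kb outside Atp6v1d, a proton pump subunit, with a fold of 9.73 and 10.0. At Ppp1r14a, an inhibitor of myosin phosphatase, chr7:29288037-29288599 lay 0.721 kb from the start with a fold of 5.49 and 4.96. The start of Rbbp8nl lay inside chr2:180289463-180290369, with a fold of 7.79 and 6.89. At Mfsd12, a lysosomal transporter gene, chr10:81358152-81358721 had 4.48 and 4.26, and at Zkscan1, a zinc finger gene, chr5:138083694-138084225 had 5.47 and 7.89. The regions at Ppp1r14a and Mfsd12 had a peak of another list within 500 bp, at 0.256 and 0.159 kb, and that at Zkscan1 had one at 0.556 kb. Those at Crip3, Mpp5 and Rbbp8nl had none within 2 kb.

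Day 9 only regions were spread over all chromosomes in step with the other DAY9 regions. On the autosomes they were between 6.34 (chromosome 6) and 8.14 (chromosome 16) per 100 DAY9 regions, on X 7.85, and on Y 8 of 70 regions. No day 9 only region lay inside Pou5f1, Sox2, Klf4, Myc or Col1a1, the genes of the cassette and its site, and 1 lay within 50 kb of Pou5f1.

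Grouping was modest. Within 50 kb of another day 9 only region, middle to middle, lay 1303 of the 4630 (28.1%, interval 26.9 to 29.5%), in 585 groups. The share was 6.07% when DAY9 peaks were scaled to the shallowest background, 16.8% with lists of equal length and 43.1% without DAY9 replicate 1. Of the groups 477 were pairs, 90 had 3 regions, 12 had 4, 5 had 5 and 1 had 6. The share rises with the number of regions in a set, and it was 18.1% for the 2414 regions of day 6 and day 9 only, 26.4% for the 3520 of all 3 intermediate days, 53.2% for the 16521 of ESC only and 65.4% for the 17371 of MEF only.

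The group of 6 spanned 100.1 kb at Kat6a, a histone acetyltransferase gene (chr8:22842574-22942666). Its first region, 16 kb outside the gene, had a fold of 10.2 and 8.48, and the other 5, all inside Kat6a, had mean folds down to 2.94. The same span held 4 other DAY9 regions, 2 regions of both ESC lists and 3 of both MEF lists. At Zfp710, a zinc finger gene, 5 regions in 69.9 kb (chr7:80006747-80076647) had a mean fold of 2.90 to 4.87. Tbc1d22a, a gene of the Rab GTPase-activating family, had 5 in 79.5 kb (chr15:86268951-86348458) with 2.82 to 4.79, and Ssbp3, a cofactor of LIM-homeodomain factors, had 5 in 91.7 kb (chr4:106934370-107026039) with 2.72 to 5.03.

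Of these 5 groups, the one at Nr5a2 lay at a gene of the pluripotency list. Nr5a2 encodes an orphan nuclear receptor that acts on Pou5f1, and 5 day 9 only regions lay in 92.6 kb at chr1:136832822-136925378, 4 of them inside the gene. Their folds, in order along the chromosome, were 3.12 and 2.75, 3.00 and 3.34, 5.65 and 4.31, 6.45 and 6.89, and 3.84 and 3.23 in the first and second list. The highest, chr1:136905850-136906661, lay 47.0 kb from the start of Nr5a2 and 2.06 kb from a region of both ESC lists. In the same span were 3 regions of both ESC lists, 1 of both MEF lists and 0 of both DAY6 lists. A further group of 5, at Lca5 and Sh3bgrl2, spanned 112.9 kb on chromosome 9 and is named because it tied in size.

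**Figure D5:**
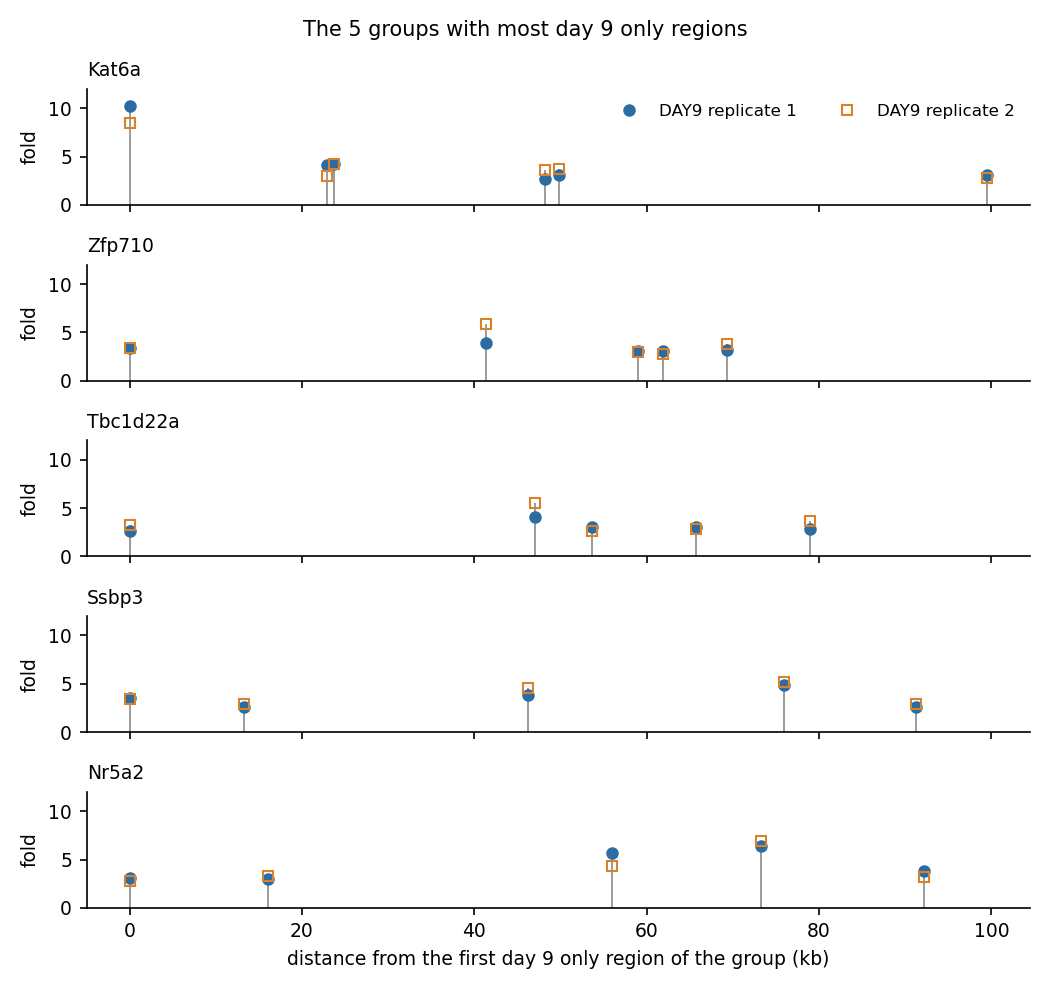
DAY9 peak fold (vertical) of each region in the 5 groups with most day 9 only regions, against distance in kb from the first region of the group (horizontal), with a filled circle for replicate 1 and an open square for replicate 2. The first region at Kat6a, at 10.2 and 8.48, is the highest of the 5 groups.

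Of 21887 protein-coding genes, 3467 were the nearest gene to at least 1 day 9 only region (15.8%), 2653 of them to 1 and 72 to 4 or more. Their median length was 49.1 kb, against 17.2 kb for all protein-coding genes, so the count per gene moves with gene length. The longest lists were those of Tbc1d22a, Slc39a11 (a zinc transporter), Msi2 (an RNA-binding protein of stem and progenitor cells) and Camta1 (a calmodulin-binding factor), with 7 regions each. Kat6a and Auts2, a gene of neural development, followed with 6, as did Kalrn. The regions of both DAY9 lists nearest to each gene numbered 20 for Tbc1d22a, 47 for Slc39a11, 39 for Msi2 and 36 for Camta1. They numbered 10 for Kat6a, 50 for Auts2 and 19 for Kalrn. Of all regions of both DAY9 lists 7.19% were day 9 only. All 7 day 9 only regions of Msi2 and of Camta1 lay inside the gene, which spans 378.9 kb and 802.2 kb. The folds of the Msi2 regions ran from 1.76 in both lists, the lowest, to 4.97 and 5.08. Those of Camta1 had a mean of 2.87 to 4.85. At Tbc1d22a the highest, chr15:86663786-86664584 with 9.01 and 8.95, lay 165.3 kb outside the gene. At Auts2 the highest was inside the gene at chr5:131897815-131898504, with 7.21 and 9.44. Per length, Kat6a had 5.97 inside regions per 100 kb, Zfp710 5.89 and Gfod1 3.67, against 0.873 for Camta1 and 0.452 for Auts2. Gfod1 had 4, all inside, with mean folds of 2.32 to 3.59.

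Gene lists of the stages and lineages, 16 in all, were read against this background. Over all lists 54 of 173 genes (31.2%) were nearest to at least 1 day 9 only region, against 15.8% of protein-coding genes. The lists were chosen with earlier results of these data known. Outside the trophectoderm, blood and germ line lists, every gene was nearest to at least 1 region of both DAY9 lists. All protein-coding genes are thus not a like background, and the difference is not a measure of enrichment. The share of a list's genes with a day 9 only region ran from 7.14% to 75%.

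Of 16 pluripotency factors 5 had one. Klf5, a KLF factor of the naive network, had one inside the gene at chr14:99305310-99305886, 6.62 kb from its start, with a fold of 7.87 and 7.52, beside a peak of another list at 0.467 kb. The region of Nr5a2 has been given above. The region nearest to Sox2, chr3:34550405-34550963, lay 99 kb away with a fold of 6.00 and 5.85, and a peak of another list at 0.434 kb. Dppa5a, an RNA-binding protein of pluripotent cells, had one 0.624 kb from its start with 3.00 and 3.34. A region 406.0 kb from Klf4 had 2.64 and 4.54. All 16 genes of the list were nearest to at least 1 region of both DAY9 lists. Such regions numbered 13 for Klf5, 23 for Nr5a2, 27 for Sox2 and 3 for Dppa5a.

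Among 10 formative pluripotency genes 3 had one. Pou3f1, a POU factor of formative cells, had 3, of which the nearest lay 17.5 kb away with 4.56 and 4.90, Lef1 had one at 30.8 kb with 5.04 and 3.11, and Zic2 had one at 0.866 kb with 2.68 and 2.93.

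Of 16 epithelial genes 6 were the nearest gene to a day 9 only region, at any distance. At Krt8, a simple epithelial keratin, 2 regions lay 1.16 and 2.01 kb outside the gene, the first at chr15:102005503-102006105 with a fold of 4.05 and 4.23 and summit pileups of 114 and 116. The start of Cldn6, a tight junction claudin of embryonic epithelia, lay inside chr17:23679152-23679805, with 2.97 and 3.34. This was the single DAY9 region nearest to Cldn6. Cldn4, another claudin, had one at 5.82 kb (5.26 and 3.58). For Epcam, an adhesion molecule of epithelia and stem cells, it lay 41.9 kb away (6.24 and 5.61). Esrp1, a regulator of epithelial splicing, had 3 with folds of 2.64 to 3.70, and Grhl2, a grainyhead-like factor, had 1 inside the gene (3.12 and 3.82). The regions near Krt8 and Cldn4 had peaks of other lists at 0.924 and 0.914 kb.

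Keratinocyte genes had one in 4 of 10 cases. Trp63, the p63 factor of stratified epithelia, had 3, of which 2 were inside the gene, with the highest at chr16:25779925-25780495 (6.49 and 5.38). Perp, a desmosome gene, had one inside at 1.46 kb from its start (2.46 and 2.29). Dsp, encoding desmoplakin, had 2, with the higher 1.17 kb outside the gene (2.76 and 2.44).

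Trophectoderm genes had one in 5 of 12 cases. They were Gata2 at 15.3 kb (4.08 and 5.61), Ascl2 at 6.6 kb (5.04 and 3.68), Tfap2c at 88.7 kb (4.37 and 2.67), Tfap2a at 6.07 kb (3.24 and 2.63) and Gata3 at 515.5 kb (3.60 and 3.34). Primitive endoderm genes had one in 3 of 11 cases, of which Sox7 was the nearest, at 6.85 kb (4.08 and 2.99), with Pdgfra at 126.0 kb and Foxa2 at 319.4 kb. Of neural genes 4 of 10 had one, with Neurog2 at 7.37 kb (4.73 and 3.48), Pax6 at 40.1 kb (3.00 and 3.23), Sox1 at 82.2 kb and Zic1 at 494.5 kb.

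The highest share was in the 8 endothelial genes, of which 6 had one. Pecam1, an adhesion molecule of vessel walls, had 2, the higher at 16 kb (4.68 and 4.54). Tie1, a receptor of vessels, had one inside the gene at chr4:118487202-118488021 (3.72 and 4.18), 17.5 kb from any peak of another list. The factor gene Fli1 had one 7.76 kb away (4.05 and 4.23), 0.393 kb from such a peak. Kdr, the receptor for vascular endothelial growth factor, had 2, one inside the gene (3.48 and 3.34). Erg had one inside (2.88 and 2.75), and Cdh5 one at 532.6 kb. These 8 genes have a median length of 53.7 kb. At the starts of 5 endothelial markers the MEF lists shared a peak at 0, and the lists of DAY3, DAY6, DAY9 and ESC each shared one at 3 (Kdr, Tek and Erg). The part of gene length and of other cells in this count was not tested.

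Fibroblast genes had one in 4 of 15 cases. Fn1, encoding fibronectin, had one inside the gene (3.00 and 3.11), Col1a2, a type I collagen gene, one at 12.4 kb (3.24 and 4.42), Thy1 one at 99.2 kb (4.44 and 4.54), and Zeb2 2, the higher at 1717 kb. One gene each of blood, muscle and germ line lists, of 8 genes each, had any. Prdm1, a factor of germ cell specification, had a high one inside the gene at chr10:44470975-44471602 (9.01 and 8.72). Runx1 had 3, with the highest at 215.3 kb (7.69 and 6.45), and Des had 2, with the higher at 18.7 kb (4.12 and 3.58).

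In signalling, 5 of 12 FGF and ERK genes had one. The feedback phosphatase gene Dusp6 had 2, the higher 22.0 kb away at chr10:99289480-99290547 (5.75 and 4.54). Spry4, a feedback inhibitor, had 2, with the higher at 21 kb (6.12 and 4.78). Fgfr1, a receptor, had one inside the gene (4.12 and 3.70), Etv5, an ETS target of the pathway, one inside (2.29 and 3.39), and Dusp4 had 3, with the highest at 114.1 kb. Of 12 Wnt genes 5 had one: the ligand Wnt7b (2, with the higher at 15.5 kb, 5.29 and 5.73), and the nuclear factors Tcf7l2 (2, with the higher inside, 5.02 and 3.57), Tcf7 (inside, 3.36 and 2.63), Lef1 as above and the target Sp5 (2.69 kb, 2.53 and 2.61). Of 14 Nodal and BMP genes only Id2 had one, at 208.7 kb, and of 5 genes for SSEA1 synthesis only Slc35c1, a GDP-fucose transporter, at 15.2 kb (4.06 and 2.71).

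Marker gene starts were read to check the stage names. Of 13 pluripotency markers, both libraries held a peak at the start of 6 markers in MEF cells, again 6 at DAY3, 10 at DAY6, 12 at DAY9 and 13 for ESC. The 6 in MEF cells and at DAY3 were Pou5f1, Sox2, Klf2, Tbx3, Tfcp2l1 and Utf1. Pou5f1 and Sox2 are also genes of the cassette, whose part in these peaks was not tested. Of 10 epithelial markers the counts from MEF to ESC were 0, 3, 9, 9 and 9, and of 11 fibroblast markers 10, 8, 7, 7 and 7. The 9 epithelial markers at DAY9 included Cldn6, whose start lies in a day 9 only region, so that marker is no separate check. They lacked Krt18, which was listed at DAY6 and for ESC. The 7 fibroblast starts at DAY6, DAY9 and ESC included Zeb1, which MEF lacked, and those of Col3a1, Thy1, Postn and Twist2 were listed in both MEF libraries and not in both DAY9 libraries. Starts of trophectoderm markers were listed for 2, 2, 2, 4 and 6 of 7, and of primitive endoderm markers for 2, 2, 3, 5 and 5 of 6, whose part in the day 9 only regions was not tested.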

How the data were processed

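Per the labels' protocols, nuclei of each library were treated with transposase and the fragments sequenced as paired ends. The submitters' processing notes name mm10, Bowtie2 2.3.2, MACS2 2.1.1 and deepTools 2.3.6, with no further settings, and handling of duplicates and of the transposase offset is not given in the sources used here. The authors deposited one peak list for each library, of 45497 to 88980 peaks. The deposited score is 10 times the −log10 p-value, rounded down. The fold is the authors' linear ratio of a summit to its surroundings. The −log10 of each p-value and q-value is the authors' too. Read totals are unknown, so relative depth came from the background pileup. No summit positions were listed.

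Merging, overlaps and distances were computed with Python 3.11.15, pandas 2.3.3, NumPy 2.4.6 and SciPy 1.17.1, and checked on simulated data. Genes, starts and promoter sequences are RefSeq's (GRCm38.p6). Starts of 17492 of 21887 protein-coding genes came from the promoter table, and for the others either gene end counted as a start. Exons and introns were not analysed here. The 2 DAY9 libraries may come from 1 sample and are counted as 1 here.

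The named regions are the 12 with the highest lower score of the 2 lists, the 5 groups with most members, the 6 genes with most members and the 3 with most per 100 kb among genes with at least 4, up to 6 at gene starts, up to 4 genes per list, the 2 lowest, and the 2 highest that missed by 1 list. Genes named beyond these were chosen after their values were seen. Some genes that the rule names are not reported here. The members and the lists were chosen with earlier results of these data known. The planned search for octamer letters in every region was replaced by the promoter windows. Alternatives were a score threshold, lists of equal length, other merging and overlap rules, scaling to the shallowest library, other distances and gene sets, and leaving out each library.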

Additional observations from a re-analysis of the deposited data

How the results depend on the processing

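The number of day 9 only regions was 4630, 4742 for peaks at or above the median score, 2274 when every list was shortened to 45497 peaks, 890 when DAY9 peaks were scaled to the shallowest background, and 4702 to 8846 when 1 library was left out. It was 8846 without DAY9 replicate 1 and 8602 without DAY9 replicate 2. The score threshold also removes low peaks from the 8 other lists. Of the 4630 regions 903 reached it in both DAY9 lists, so most of the 4742 are not among the 4630. The share at gene starts (3.26%) was 5.53% for peaks at or above the median score, 4.13% at equal length, 3.97% where a peak must cover 50% of the region, 2.64% with no other peak within 500 bp, 7.54% with 2.5 kb and 7.24% over all annotated genes, and 3.23 to 3.60% without 1 library. Outside genes lay 47.0% at the median score, 51.1% at equal length, 51.8% after scaling and 40.1% with all annotated genes (47.8 to 49.5% without 1 library). The share in groups was 33.3% at the median score, 16.8% at equal length, 33.5% with 50% cover, 26.8% with peaks up to 200 bp apart merged, 25.6% with no other peak within 500 bp, 6.07% after scaling, 10.3% at a shorter grouping distance, 43.5% at 100 kb, and 28.6 to 43.1% without 1 library. It was 43.1% and 42.3% without DAY9 replicate 1 or 2. Median fold in the same order was 5.43, 5.33, 3.59, 3.45, 3.47 and, after scaling, 5.51 (2.99 to 3.52 without 1 library). Near ESC regions lay 29.7% at the median score, 30.8% at equal length, 47.0% after scaling and 39.2% with 50% cover. The share was 44.3% with no other peak within 500 bp and 88.0% at 50 kb (46.2 to 58.9% without 1 library). Apart from the distances, gene sets and lists these settings change by construction, the cause was not tested. No paired analysis was possible because these results come from no test. The alternatives planned for the octamer share were not run, since sequence was read in promoter windows only, and the planned window around the summit was set around the middle of the peak.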
